A study of Homo sapiens with 42 samples.

Results

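The gene expression of human AC16 cells carrying a hairpin against RPL3 (shRPL3) was compared with that of AC16 cells carrying a scrambled hairpin (shScramble). The comparison takes the 3 shRPL3 and the 3 shScramble libraries, which are 6 of the 42 libraries in the series, and the genes whose mean over these 6 libraries reached 1 TPM. TPM is an abundance per transcript length scaled to a fixed total in each library. That threshold kept 14422 of the 60606 genes in the table. AC16 is an established human cell line used as a model of cardiomyocytes and derived by fusing ventricular cardiomyocytes with SV40-transformed fibroblasts. The shRPL3 cells carry a stably integrated hairpin against RPL3 that doxycycline switches on, and the shScramble cells carry a scrambled hairpin on a like plasmid. Cells with the RPL3 hairpin had been kept by hygromycin selection, and doxycycline was given at 1 ug/ml per the labels. The remaining 24 whole-cell libraries carry the RPL3 hairpin together with a construct for RPL3L, and 12 further libraries hold nuclear RNA; neither set entered the tests. RNA was polyA-selected from whole cells. Whether a line is 1 clone, and how long doxycycline was given, is not stated in the labels. The labels do not tell whether replicates were grown apart, and the p-values below then cover the variation among these 6 libraries alone, which may be technical. TPM keep no sequencing depth, so the depth of each library is unknown.

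RPL3 (uL3) is a core protein of the large, 60S, ribosomal subunit that joins the pre-60S particle early and reaches toward the peptidyl transferase centre. When assembly of a subunit stalls, unassembled RPL5 and RPL11, held with the 5S rRNA in the 5S RNP, can bind MDM2 and stabilise p53, and ribosome shortage is widely studied for its effects on translation and metabolism. RPL3L is the paralog of RPL3 that takes its place in the ribosomes of adult heart and skeletal muscle.

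RPL3, at 39312882 to 39320389 on the minus strand of chromosome 22 (GRCh38, GENCODE 29, ENSG00000100316.15), was lowered by the hairpin. Its levels were 539, 500 and 570 TPM in shRPL3, against 1565, 1534 and 1611 TPM in shScramble. The groups lay far apart, and the shRPL3 mean was 34.1% of the shScramble mean. The log2 fold change, on the log2(TPM + 1) scale used throughout, was -1.55 (SE 0.05, limma adjusted p = 2.19e-06) and -1.60 without shRPL3 replicate 3. Reads of RPL3 and of its processed pseudogenes can be confused, so its level is less certain than these errors show. RPL3L, at 1943974 to 1957606 on the minus strand of chromosome 16, was at 0.029 and 0.0353 TPM in shRPL3 replicates 1 and 2 and at 121 TPM in replicate 3, against 0 to 0.0571 TPM in shScramble. Only replicate 3 stood apart, and RPL3L did not pass the test (log2 fold change 2.30, SE 2.10, adjusted p = 0.431; 0.00 and adjusted p = 0.993 without replicate 3).

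The table also holds sequences of the introduced plasmids, and these bear on the libraries. EBFP2 and rtTA3, which belong to the RPL3L construct, were at 434 and 428 TPM in shRPL3 replicate 3. They were at 0 and at most 0.217 TPM in the other shRPL3 libraries and at 0 in shScramble. In the 24 libraries of cells with an RPL3L construct, EBFP2 ranged from 8373 to 19650 TPM, so shRPL3 replicate 3 held 2.21% to 5.18% of their level, and for RPL3L 2.33% to 5.66%. Replicate 3 therefore goes against its label to that extent, and results are given without it as well where its removal ended a call of a named gene. The hairpin plasmid also differed in level: TetR averaged 450 ± 18.6 TPM in shRPL3 and 1304 ± 21.1 TPM in shScramble, and HygR 309 ± 34.9 TPM in shRPL3 and 943 ± 95.5 TPM in shScramble (SD, n = 3 each). The part of these differences in the results below was not tested.

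The cells showed few cardiomyocyte transcripts. Of 18 cardiomyocyte marker genes, 2 reached the 1 TPM threshold (GJA1 and GATA4), 11 averaged under 0.1 TPM, and MYH6 and NPPA were listed at 0 in each of the 6 libraries. The list summed to 109.4 to 116.6 TPM in shRPL3 and 127.4 to 137.7 TPM in shScramble, nearly all of it GJA1, the connexin 43 gene. By contrast all 12 fibroblast markers passed the threshold, with sums of 5026 to 5369 TPM in shRPL3 and 5336 to 5853 TPM in shScramble. VIM, the largest part of these sums, averaged 2768 TPM in shRPL3 and 3476 TPM in shScramble. POSTN passed through shRPL3 alone, at 2.85 to 3.26 TPM there and 0.2 to 0.387 TPM in shScramble. Of 7 endothelial markers none passed, CD68 alone passed of 7 leukocyte markers, and KRT8, KRT18 and KRT19 passed of 6 epithelial markers, with EPCAM and CDH1 below 1 TPM. Their sums were 0.806 to 0.989 TPM in shRPL3 and 1.669 to 2.052 TPM in shScramble for the endothelial list, 63 to 67.7 TPM in shRPL3 and 118.5 to 132.5 TPM in shScramble for the leukocyte list, and 221 to 240.8 TPM in shRPL3 and 235.2 to 268.1 TPM in shScramble for the epithelial list. The libraries are bulk RNA, in which fewer cells of a type and less RNA per cell cannot be told apart.

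The knockdown came with differences across much of the transcriptome. At a limma adjusted p under 0.05 with Benjamini-Hochberg adjustment over the 14422 genes, 3055 genes were higher in shRPL3 (21.2%) and 3211 were lower (22.3%), together 6266 or 43.4%. The median log2 fold change of all tested genes was -0.02, and the middle 50% of genes lay between -0.28 and 0.25. A change of at least 2-fold was less common, with 163 genes higher (1.13%) and 270 lower (1.87%), or 3.00% in all. For 7895 genes (54.7%) the 3 shRPL3 libraries and the 3 shScramble libraries did not overlap, with shRPL3 above in 26.6% and below in 28.1%. Without shRPL3 replicate 3 there were 2681 genes higher and 2950 lower, and 5344 of the 6266 genes were called in the same direction. Calls depended on level: 22.4% of genes passed in the lowest quartile by mean TPM (median 2.04 TPM) and 61.1% in the highest quartile (median 89.7 TPM). Of 11763 protein-coding genes 48.3% passed, and of 1339 long non-coding RNA genes 25.9% passed, 224 higher and 123 lower.

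**Figure D1:**
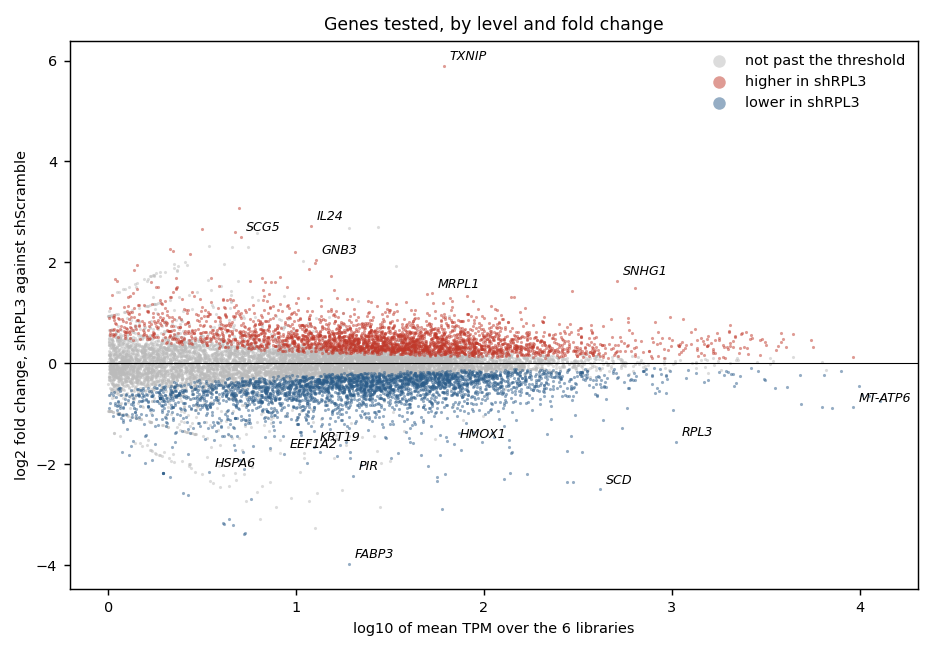
Log2 fold change of shRPL3 against shScramble (vertical axis) against the log10 of the mean TPM over the 6 libraries (horizontal axis), with 1 point per tested gene, coloured by the limma call. TXNIP stands alone at the top with 5.90, FABP3 is at -3.97, and RPL3 at -1.55 lies toward the right, among the most abundant genes.

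TXNIP had the largest rise of any gene named here. It encodes the arrestin-fold protein that binds thioredoxin and restrains glucose uptake. TXNIP was at 125, 127 and 113 TPM in shRPL3, against 1.05, 0.845 and 1.28 TPM in shScramble, so that it was barely detected without the knockdown. Its log2 fold change was 5.90 (SE 0.10, adjusted p = 6.47e-08). IL24, a cytokine of the IL-10 family, was at 23.5, 18.6 and 22.5 TPM in shRPL3, against 2.53, 1.90 and 2.78 TPM in shScramble (log2 fold change 2.73, SE 0.14, adjusted p = 1.75e-05). SCG5, a secretory granule chaperone, was at 11.5, 7.42 and 8.95 TPM in shRPL3, against 0.698, 0.416 and 1.36 TPM in shScramble (2.51, SE 0.22, adjusted p = 0.000126). These genes were picked on the conditions that the groups were separate and that the call held without shRPL3 replicate 3. Without that replicate their log2 fold changes were 5.95, 2.70 and 2.53. Next by size came MROH6 (2.21), GNB3, a G protein beta subunit (2.05), DOK3, an adaptor of immune receptor signalling (1.99), TMEM79 (1.86), MSC, the transcription factor musculin (1.73), YJEFN3 (1.71) and UCN2, the peptide hormone urocortin 2 (1.69). SMOX, spermine oxidase, had a log2 fold change of 1.61, and AGER, the receptor for advanced glycation end products, 1.60. SENP3-EIF4A1 was at 1.54, but it is a readthrough gene that shares sequence with SENP3 and EIF4A1, so its value is uncertain.

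FABP3 had the largest fall. It encodes the fatty acid carrier of heart and muscle cytosol. FABP3 was at 1.52, 1.04 and 1.75 TPM in shRPL3, against 35.3, 38.2 and 37.0 TPM in shScramble (log2 fold change -3.97, SE 0.12, adjusted p = 1.63e-06). Most of the other genes that fell most belong to lipid metabolism, and are described below. PIR, an iron-binding nuclear protein, was at 6.31, 6.56 and 6.42 TPM in shRPL3, against 32.6, 34.2 and 34.3 TPM in shScramble (-2.22, SE 0.07, adjusted p = 1.45e-06). OLR1, a scavenger receptor for oxidised LDL, was at 1.23, 1.21 and 1.74 TPM in shRPL3, against 9.15, 9.24 and 9.14 TPM in shScramble (-2.10, SE 0.12, adjusted p = 3.11e-05). The groups did not overlap in any of these genes, which was a condition for naming them.

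**Figure D2:**
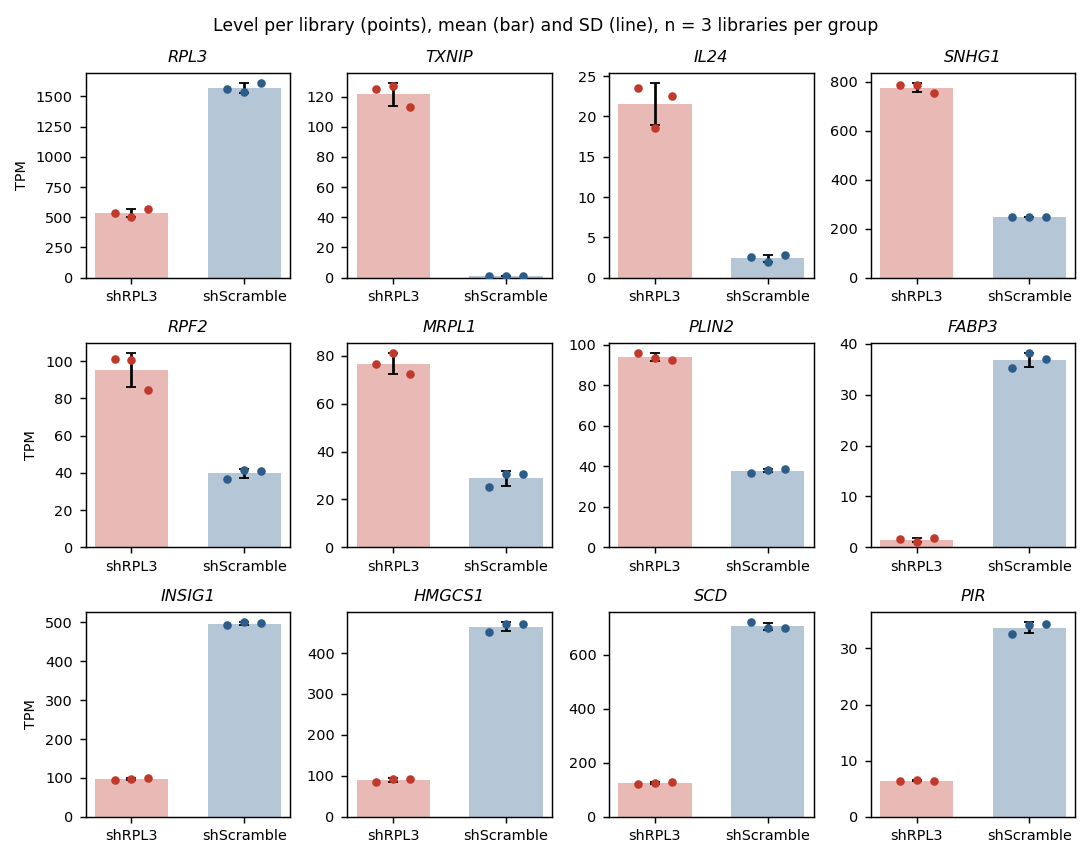
TPM of 12 genes in each library (points), with the mean (bar) and SD (line) of the 3 shRPL3 and the 3 shScramble libraries. In each gene the groups are separate: RPL3, FABP3, INSIG1, HMGCS1, SCD and PIR are lower in shRPL3, and TXNIP, IL24, SNHG1, RPF2, MRPL1 and PLIN2 are higher.

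Genes of cholesterol synthesis fell, with 2 exceptions. Of 22 genes of the pathway, 20 were lower in shRPL3 and 0 were higher, where 22.3% of all tested genes were lower and 21.2% higher, with a median log2 fold change of -1.51 against -0.02 for all tested genes. The list held 0.151%, 0.152% and 0.156% of all TPM in shRPL3, against 0.443%, 0.442% and 0.451% in shScramble. Its total was thus nearly level within each group and far apart between them. At the entry of the pathway, HMGCS1, which makes HMG-CoA, was at 85.4, 91.4 and 93.1 TPM in shRPL3, against 452, 471 and 472 TPM in shScramble (log2 fold change -2.36, SE 0.05, adjusted p = 1.74e-07). MVD, which makes isopentenyl diphosphate, was at 37.4, 39.5 and 52.8 TPM in shRPL3, against 228, 197 and 211 TPM in shScramble (-2.28, SE 0.13, adjusted p = 4.52e-05). Replicate 3 was the highest of the shRPL3 libraries for MVD, and without it the log2 fold change was -2.43. Past squalene, the shRPL3 means were 36.2% of the shScramble mean for SQLE, the squalene epoxidase, 21.8% for MSMO1, a C4-demethylating oxidase, and 21.2% for DHCR7, which makes cholesterol from 7-dehydrocholesterol. MSMO1 was at 51.0, 48.1 and 48.1 TPM in shRPL3, against 220, 229 and 227 TPM in shScramble (-2.18, SE 0.05, adjusted p = 2.23e-07). The exceptions were PMVK, phosphomevalonate kinase (log2 fold change -0.12), and GGPS1, which branches off toward protein prenylation (0.12), neither of which passed the test.

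**Figure D3:**
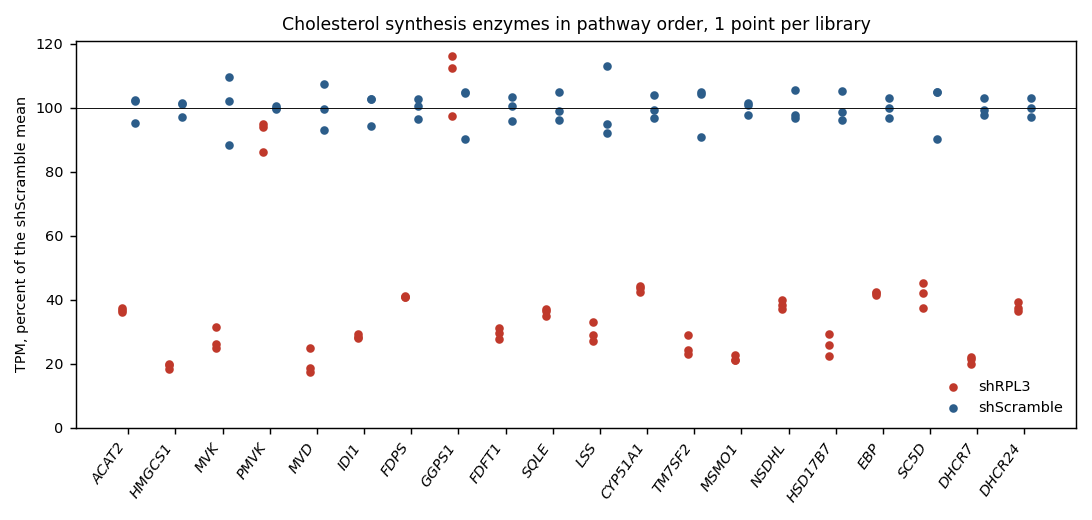
TPM of 20 cholesterol synthesis enzymes, in pathway order from left to right, as percent of the gene's shScramble mean, with 1 point per library. Except for GGPS1, the shRPL3 points of each enzyme lie below its shScramble points. The shRPL3 means are 91.7% for PMVK, 109% for GGPS1 and 19.4% (HMGCS1) to 43.6% (CYP51A1) for the others.

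Genes that sense, take up and move sterols shared in the fall in part. Of 23 tested, 13 were lower and 1 was higher, with a median log2 fold change of -0.61. Among all tested genes 22.3% were lower and 21.2% higher. INSIG1, which holds the SREBP escort SCAP in the endoplasmic reticulum, was at 93.9, 98.3 and 98.7 TPM in shRPL3, against 492, 501 and 497 TPM in shScramble (-2.35, SE 0.04, adjusted p = 6.47e-08). The groups did not overlap, which was a condition for naming it. Of the regulators, SREBF2, the master transcription factor of sterol synthesis, was lower (-1.39), and SREBF1 was lower by less (-0.64). NR1H2, the sterol receptor LXR beta, was the 1 gene higher (0.35), although it did not pass when all 30 whole-cell libraries shared the estimate of spread. The export pump ABCA1 (0.05) and SCAP (-0.12) did not pass the test.

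Fatty acid synthesis and desaturation showed the same direction. Of 23 tested genes, 14 were lower and 0 higher, with a median of -0.48. Among all tested genes 22.3% were lower and 21.2% higher. SCD, which desaturates stearoyl-CoA, was at 121, 125 and 129 TPM in shRPL3, against 722, 698 and 701 TPM in shScramble (log2 fold change -2.49, SE 0.04, adjusted p = 6.47e-08). FADS2, the delta-6 desaturase, was at 62.3, 55.3 and 64.0 TPM in shRPL3, against 288, 272 and 279 TPM in shScramble (-2.19, SE 0.06, adjusted p = 1.25e-06). ACSS2, which makes acetyl-CoA from acetate, was at -2.03 and PNPLA3, a lipid droplet hydrolase, at -2.01. FASN, the fatty acid synthase, was among the 10 genes in which shRPL3 replicate 3 stood farthest from its group. It was at 48.3, 56.8 and 89.5 TPM in shRPL3, against 242, 219 and 188 TPM in shScramble (-1.76, adjusted p = 0.00388; -2.02 without replicate 3). Fatty acid carriage, storage and oxidation split, with 8 of 22 genes higher and 7 lower. That is 68.2% called, where 43.4% of all tested genes were. Opposite to FABP3, the lipid droplet coat PLIN2 was at 96.3, 93.5 and 92.3 TPM in shRPL3, against 36.9, 37.9 and 38.4 TPM in shScramble (1.29, SE 0.05, adjusted p = 4e-06). G0S2, an inhibitor of the lipase ATGL, was also higher (0.77), as were CPT1B, the muscle form of the carnitine transferase (0.68), and FABP5, the epidermal fatty acid carrier (0.61).

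The sequences just upstream of TXNIP and FABP3, the genes with the largest rise and fall named here, and of 3 lipid genes that fell are printed from RefSeq (GRCh38.p14), each with the 250 bases before the start site read 5′ to 3′ along the gene. Of the tested genes, 10185 matched a promoter in that table, and so did 17 of the 22 cholesterol synthesis genes. In FABP3, HMGCS1, MSMO1 and SCD the capitals mark the CCAAT box, the site of NF-Y, searched as CCAAT on both strands. In TXNIP the capitals mark a carbohydrate response element, a pair of E-box-like parts, searched as CACGNG, any 5 bases and CACGNG again, on both strands, and chosen after this promoter had been read.
TXNIP (chr1:145996580-145996829, minus strand): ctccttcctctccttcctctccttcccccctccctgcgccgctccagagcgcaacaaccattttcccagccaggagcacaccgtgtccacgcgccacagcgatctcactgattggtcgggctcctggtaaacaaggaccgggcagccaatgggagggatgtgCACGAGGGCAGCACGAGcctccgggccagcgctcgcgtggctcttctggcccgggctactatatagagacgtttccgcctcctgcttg
FABP3 (chr1:31373077-31373326, minus strand): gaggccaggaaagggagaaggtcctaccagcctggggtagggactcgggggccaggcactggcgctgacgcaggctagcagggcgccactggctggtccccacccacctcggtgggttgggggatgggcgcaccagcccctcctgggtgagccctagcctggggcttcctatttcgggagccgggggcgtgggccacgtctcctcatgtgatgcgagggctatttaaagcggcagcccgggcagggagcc
HMGCS1 (chr5:43313413-43313662, minus strand): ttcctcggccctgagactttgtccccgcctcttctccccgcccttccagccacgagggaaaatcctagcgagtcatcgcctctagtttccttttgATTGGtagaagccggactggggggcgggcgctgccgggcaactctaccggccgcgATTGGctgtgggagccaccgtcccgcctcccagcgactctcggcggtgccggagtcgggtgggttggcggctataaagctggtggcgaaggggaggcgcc
MSMO1 (chr4:165327419-165327668, plus strand): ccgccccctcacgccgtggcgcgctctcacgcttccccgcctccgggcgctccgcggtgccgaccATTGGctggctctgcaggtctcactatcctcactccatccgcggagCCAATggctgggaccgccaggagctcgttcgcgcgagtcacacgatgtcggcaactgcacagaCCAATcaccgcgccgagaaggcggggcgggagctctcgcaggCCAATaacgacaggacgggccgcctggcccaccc
SCD (chr10:100346983-100347232, plus strand): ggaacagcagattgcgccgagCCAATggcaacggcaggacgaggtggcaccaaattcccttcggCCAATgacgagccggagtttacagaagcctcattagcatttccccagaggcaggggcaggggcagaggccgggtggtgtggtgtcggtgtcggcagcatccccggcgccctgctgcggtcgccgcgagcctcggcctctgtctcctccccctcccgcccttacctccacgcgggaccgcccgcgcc

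The TXNIP match ended 71 bases before the start site. It is rare: 16 of 27305 promoters in the table (0.0586%) and 13 of the 10185 tested ones held it. Of those 13, 6 were higher in shRPL3, 3 lower and 4 not called. The 6 include TXNIP, from whose promoter the element was chosen. Of the 10185 tested genes with a promoter, 2338 were higher and 2461 lower. Apart from TXNIP, the log2 fold changes ran from -0.74 (P4HA1) to 0.63 (MTHFS). The TXNIP window held CCAAT boxes as well, left in lower case (in ctgattggtc and in cagccaatgg). FABP3 held 0 CCAAT boxes and so has no capitals. HMGCS1 held 2, ending 150 and 95 bases before the start. MSMO1 held 4, the nearest ending 29 bases before the start, and SCD held 2. The CCAAT box stood in 12 of the 17 cholesterol synthesis promoters (70.6%), in 35.5% of the tested promoters and in 33.0% of all promoters. It stood in 84.0% of the promoters of endoplasmic reticulum chaperone and unfolded protein response genes and 76.7% of the G2 and mitosis promoters, lists with median log2 fold changes of -0.18 and -0.14. It was in 49.4% of the 168 promoters of genes at least 2-fold lower and in 42.1% of the 95 of genes at least 2-fold higher. The sterol regulatory element, searched as TCACNCCAC on both strands, was in 0 of the 17 windows and in 0.874% of tested promoters. It was searched in this one spelling and window. These matches describe letters and are no measure of binding.

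Most genes of the ribosome itself were higher, where 21.2% of all tested genes were higher and 22.3% lower. Of 52 tested large-subunit protein genes (RPL3L among them), 44 were higher and 3 lower, with a median log2 fold change of 0.38. Of 34 small-subunit genes, 28 were higher and 0 lower, with a median of 0.35. When all 30 whole-cell libraries shared the estimate of spread, the counts of higher genes were 26 and 15. With a term for library kind, a split of the libraries by their pseudogene levels, they were 44 and 30. The lists together took up a larger part of the transcriptome: the large-subunit genes held 10.6%, 10.3% and 10.2% of all TPM in shRPL3, against 7.92%, 8.32% and 8.30% in shScramble. The small-subunit genes held 7.92%, 7.60% and 7.63% in shRPL3, against 5.78%, 6.11% and 6.06% in shScramble. RPL24 was at 2549, 2505 and 2602 TPM in shRPL3, against 1470, 1559 and 1506 TPM in shScramble (log2 fold change 0.76, SE 0.03, adjusted p = 1.1e-05). RPS27A was at 2562, 2430 and 2304 TPM in shRPL3, against 1477, 1680 and 1596 TPM in shScramble (0.62, SE 0.06, adjusted p = 0.000151). These levels did not overlap between groups, which was a condition for naming the genes. The 3 lower members were RPL3, RPL12 (-0.24), a protein of the ribosomal stalk base, and RPL39L (-0.47), a paralog of RPL39. RPL12 was at 2169, 2093 and 2107 TPM in shRPL3, against 2449, 2523 and 2558 TPM in shScramble (SE 0.03, adjusted p = 0.000744). By absolute difference in TPM, the greatest rises among the genes that qualified to be named were those of RPS18, RPS27, RPL26, RPL39 and RPL41. RPS18 averaged 5321 ± 243 TPM in shRPL3 and 3559 ± 231 TPM in shScramble. Ribosomal protein genes have many processed pseudogenes, and how the authors' counting divided reads among them is not stated, so single levels are uncertain.

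Factors that build ribosomes rose with them, where 21.2% of all tested genes were higher and 22.3% lower. Of 68 genes for 60S assembly, 52 were higher and 1 lower, with a median log2 fold change of 0.39. Of 60 genes for 40S assembly, 48 were higher and 0 lower, with a median of 0.44. Of 29 genes of RNA polymerase I and the snoRNPs that modify rRNA, 21 were higher and 0 lower, with a median of 0.40. RPF2 and RRS1 carry the 5S RNP into the pre-60S particle and had the largest changes of the 60S list. RPF2 was at 101, 100 and 84.5 TPM in shRPL3, against 36.8, 41.3 and 41.0 TPM in shScramble (log2 fold change 1.24, SE 0.08, adjusted p = 4.52e-05). RRS1 was at 85.2, 81.1 and 87.9 TPM in shRPL3, against 38.5, 33.3 and 37.1 TPM in shScramble (1.20, SE 0.07, adjusted p = 2.78e-05). In both genes the lowest shRPL3 library was above the highest shScramble library, which was a condition for naming them. NIFK, which takes part in pre-rRNA processing, was higher by 1.10, and PAK1IP1 by 0.98. Of the 40S list NGDN had the largest change (0.95), followed by UTP11 (0.91) and PNO1 (0.88), and DKC1, the pseudouridine synthase of the box H/ACA snoRNPs, was at 0.89. SPATA5, an ATPase that recycles factors from the pre-60S particle, was the 1 lower gene (-0.39, adjusted p = 0.0262), a call lost without shRPL3 replicate 3 (-0.37, adjusted p = 0.0695).

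Non-coding hosts of snoRNAs, many of whose spliced transcripts are translated and degraded, were among the clearest rises. Of 25 tested, 18 were higher and 1 was lower (MEG3, -0.34, a call lost under 1 or more alternative settings), with a median log2 fold change of 0.60. Among all tested genes 21.2% were higher and 22.3% lower. SNHG1 was at 785, 787 and 753 TPM in shRPL3, against 247.8, 248.9 and 246.5 TPM in shScramble (log2 fold change 1.64, SE 0.03, adjusted p = 2.23e-07). GAS5 was at 968, 969 and 878 TPM in shRPL3, against 319.8, 343.04 and 331.7 TPM in shScramble (1.50, SE 0.05, adjusted p = 2.34e-06). ZFAS1 was at 432, 441 and 408 TPM in shRPL3, against 147, 165 and 163 TPM in shScramble (1.42, SE 0.06, adjusted p = 5.6e-06). In each of them replicate 3 was the lowest of the shRPL3 libraries, and the change was at least as large without it (1.66, 1.54 and 1.46).

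**Figure D4:**
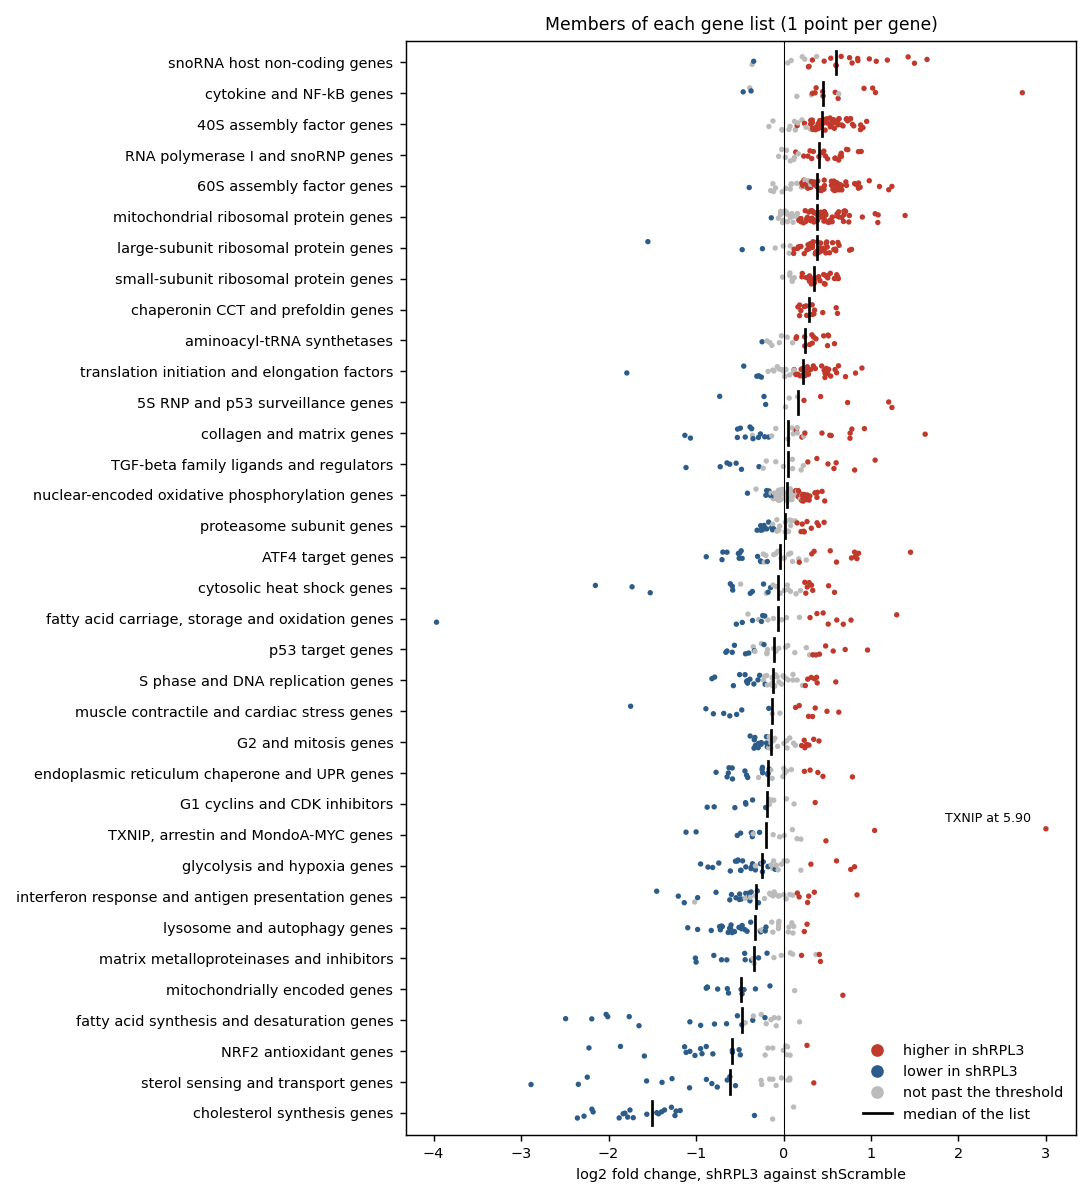
Log2 fold change of shRPL3 against shScramble (horizontal axis) of each tested member of 35 gene lists, sorted by median (black line), with 1 point per gene, red if higher in shRPL3, blue if lower and grey if not past the threshold. RPL3L is left out, and TXNIP, at 5.90, is drawn at the right edge. The snoRNA hosts have the highest median (0.60) and cholesterol synthesis the lowest (-1.51).

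Further parts of the translation machinery rose as well, where 21.2% of all tested genes were higher and 22.3% lower. Of 50 initiation and elongation factors, 31 were higher and 5 lower, with a median log2 fold change of 0.22. EIF2B4, a subunit of the exchange factor for eIF2, was at 57.1, 55.4 and 56.9 TPM in shRPL3, against 30.5, 28.2 and 31.0 TPM in shScramble (0.90, SE 0.06, adjusted p = 3.99e-05). EEF1A2, the elongation factor form of muscle and neurons, moved against the list and was at 3.81, 2.53 and 3.73 TPM in shRPL3, against 14.4, 12.5 and 15.0 TPM in shScramble (-1.79, SE 0.14, adjusted p = 8.32e-05). Of 22 aminoacyl-tRNA synthetase genes and their partners, 14 were higher and 1 lower (QARS1, -0.24), with a median of 0.24. All 14 tested genes of the chaperonin CCT and its partner prefoldin, which fold actin and tubulin, were higher, from 0.16 to 0.62 (13 of 14 without shRPL3 replicate 3).

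Mitochondrial ribosomal protein genes were mostly higher, and mRNAs of the mitochondrial genome mostly lower. Among all tested genes 21.2% were higher and 22.3% lower. Nuclear genes for mitochondrial ribosomal proteins were higher in 58 of 77 cases and lower in 1, with a median log2 fold change of 0.38. The lower one, MRPL16 (-0.14, adjusted p = 0.0304), was not called without shRPL3 replicate 3 (adjusted p = 0.0756). MRPL1 was at 76.5, 81.4 and 72.4 TPM in shRPL3, against 25, 30.7 and 30.6 TPM in shScramble (1.39, SE 0.09, adjusted p = 3.99e-05), and MRPL47 was higher by 1.08. Of the 13 mRNAs made from the mitochondrial genome, 11 were lower and 1 higher, with a median of -0.48. With the spread estimated over all 30 libraries, 7 were lower. Together they held 6.26%, 6.51% and 6.15% of all TPM in shRPL3, against 10.2%, 9.80% and 9.36% in shScramble. MT-CO1, a core subunit of complex IV, was at 8639, 8926 and 8689 TPM in shRPL3, against 14434, 13669 and 12909 TPM in shScramble (-0.64, SE 0.04, adjusted p = 4.1e-05). MT-ATP6, of the ATP synthase, was at 6656, 6698 and 6189 TPM in shRPL3, against 12617, 11765 and 11367 TPM in shScramble (-0.87, SE 0.05, adjusted p = 2.52e-05). MT-ND1 went the other way, at 1580, 1642 and 1672 TPM in shRPL3, against 1086, 1024 and 951 TPM in shScramble (0.68, SE 0.05, adjusted p = 6.79e-05), a call lost when all 30 libraries were fitted together. MT-ND6, the 1 coded on the light strand, did not pass (0.13). Nuclear genes of oxidative phosphorylation changed little: 23 of 76 were higher and 8 lower, with a median of 0.04. In this list 40.8% were called, where 43.4% of all tested genes and 61.1% of those in the highest quartile by level were. Under alternative settings the number higher was as low as 10.

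Stress pathways did not move as one. In the ATF4 list, which holds genes of the integrated stress response, 11 of 38 were higher and 13 lower, with a median log2 fold change of -0.05. That is 63.2% called, where 43.4% of all tested genes were. Among the higher ones were ATF3, ATF4, DDIT3 and ATF5, which encode transcription factors. ATF3 was at 22.6, 24.2 and 24.6 TPM in shRPL3, against 8.36, 9.37 and 6.66 TPM in shScramble (1.45, SE 0.12, adjusted p = 8.13e-05). ATF4 itself was at 1038, 1020 and 1066 TPM in shRPL3, against 606, 589 and 582 TPM in shScramble (0.81, SE 0.03, adjusted p = 8.36e-06). DDIT3, which encodes CHOP, was higher by 0.86, ATF5 by 0.84 and PPP1R15A, the feedback subunit that dephosphorylates eIF2 alpha, by 0.82. Among the lower ones were the cystine carrier SLC7A11 (-0.88), PHGDH, of serine synthesis (-0.69), and ASNS, asparagine synthetase (-0.47). Of 28 genes of endoplasmic reticulum folding and its unfolded protein response, 15 were lower and 5 higher, or 71.4% called, with a median of -0.18. PDIA4, a disulfide isomerase, was at 89.3, 90.1 and 88.6 TPM in shRPL3, against 160, 150 and 149 TPM in shScramble (-0.77, SE 0.04, adjusted p = 2.93e-05). The sensor ERN1 (0.79) and the factor it splices, XBP1 (0.45), were higher.

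Among the cytosolic heat shock genes, 8 of 30 were higher and 11 lower, and the inducible HSP70 genes fell most. In this list 63.3% were called, where 43.4% of all tested genes were. HSPA1A was at 67.2, 66.0 and 75.5 TPM in shRPL3, against 220, 176 and 211 TPM in shScramble (log2 fold change -1.52, SE 0.09, adjusted p = 3.26e-05). HSPA1B, its near-identical neighbour whose reads can be confused with it, was at -1.73, and HSPA6 at -2.15, with 0.385 to 0.762 TPM in shRPL3 and 5.28 to 8.12 TPM in shScramble. CHORDC1, an HSP90 co-chaperone, was higher by 0.58. Of 34 proteasome subunit genes, 10 were higher and 10 lower, with a median of 0.02. That is 58.8% called, where 43.4% of all tested genes and 61.1% of those in the highest quartile by level were. With all 30 libraries fitted together 6 were higher, and 11 with a term for library kind.

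Antioxidant genes of the NRF2 pathway were mostly lower, with 15 of 24 lower, 1 higher and a median log2 fold change of -0.58. In this list 66.7% were called, where 43.4% of all tested genes were (21.2% higher and 22.3% lower). HMOX1, heme oxygenase 1, was at 34.7, 32.2 and 35.4 TPM in shRPL3, against 110, 100 and 104 TPM in shScramble (-1.59, SE 0.06, adjusted p = 4e-06). NQO1, a quinone reductase, was at 282, 263 and 262 TPM in shRPL3, against 564, 582 and 627 TPM in shScramble (-1.13, SE 0.05, adjusted p = 1.18e-05). AKR1C3, an aldo-keto reductase, fell by 1.86, and the NADPH-making enzymes PGD and ME1 were at -1.11 and -1.07. NFE2L2, which encodes NRF2, and its partner in degradation KEAP1 did not pass the test (0.04 and 0.03). SRXN1, sulfiredoxin, was the 1 higher gene (0.27), a call lost with all 30 libraries fitted together.

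Lysosome and autophagy genes also leaned lower, with 22 of 38 lower, 2 higher and a median of -0.32. Among all tested genes 22.3% were lower and 21.2% higher. CTSD, the aspartic protease cathepsin D, was at 72.8, 70.2 and 86.3 TPM in shRPL3, against 185, 144 and 165 TPM in shScramble (log2 fold change -1.09, SE 0.11, adjusted p = 0.000238). NEU1, lysosomal sialidase, was at 55.2, 52.2 and 57.8 TPM in shRPL3, against 113, 109 and 107 TPM in shScramble (-0.98, SE 0.05, adjusted p = 2.64e-05). The 2 higher genes were the autophagy receptor SQSTM1 (0.27) and MAP1LC3B (0.24), and the regulators TFEB and TFE3 did not pass. CD68, a lysosomal membrane protein used above as a leukocyte marker, was lower as well (-0.93, adjusted p = 3.96e-05), while the leukocyte gene CD3E was listed at 0 in each of the 6 libraries.

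The genes of the p53 pathway gave a mixed picture. AC16 derives in part from SV40-transformed fibroblasts, and whether p53 can act in these cells was not tested. In the group around the 5S RNP, RPL5 was higher (0.42) and RPL11 did not pass the test (0.07). RPL11 was at 2343, 2244 and 2115 TPM in shRPL3, against 2059, 2196 and 2148 TPM in shScramble, and the groups overlapped. MDM2, both a target and the ubiquitin ligase of p53, was at 31.6, 27.9 and 26.4 TPM in shRPL3, against 29.7, 30.6 and 24.3 TPM in shScramble (log2 fold change 0.02, SE 0.10, adjusted p = 0.877). CDKN1A, the p21 gene, was at 93.4, 90.0 and 100 TPM in shRPL3, against 135, 127 and 123 TPM in shScramble (-0.43, SE 0.06, adjusted p = 0.000804). Of 29 p53 target genes 51.7% were called, where 43.4% of all tested genes were, with 7 higher and 8 lower (5 lower without shRPL3 replicate 1, without shRPL3 replicate 2 or without shScramble replicate 1), with a median of -0.11. TRIAP1 (0.96) and TIGAR (0.70) led the higher ones, and MDM4, the relative of MDM2, was lower (-0.73).

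Cell cycle genes moved by small amounts. Of 44 S phase genes, 7 were higher and 13 lower, with a median log2 fold change of -0.12. In this list 45.5% were called, where 43.4% of all tested genes and 61.1% of those in the highest quartile by level were. Of 37 G2 and mitosis genes, 8 were higher and 14 lower, with a median of -0.14. That is 59.5% called, where 43.4% of all tested genes were. With all 30 libraries fitted together 8 were lower, and 17 with a term for library kind. MCM6, of the replicative helicase, was at 47.0, 46.9 and 42.9 TPM in shRPL3, against 75.9, 81.1 and 86.7 TPM in shScramble (-0.82, SE 0.07, adjusted p = 8.97e-05). E2F1 was lower by a like amount (-0.79), and the proliferation marker MKI67 was at -0.38. Among 14 G1 cyclins and inhibitors, 7 were lower, including the inhibitors CDKN2D (-0.87) and CDKN1B, or p27 (-0.79), and CDK6 was the 1 higher (0.36). That is 57.1% called.

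Inflammatory and interferon genes went in different directions. Of 18 tested cytokine and NF-kB genes, 11 were higher and 2 lower, with a median log2 fold change of 0.45. That is 72.2% called, where 43.4% of all tested genes were. Besides IL24, the higher ones were led by IL11, at 40.4, 39.8 and 47.2 TPM in shRPL3, against 22.4, 16.6 and 21.2 TPM in shScramble (1.05, SE 0.12, adjusted p = 0.000376). IL6 was at 8.39, 8.50 and 9.71 TPM in shRPL3, against 3.32, 3.87 and 5.70 TPM in shScramble (0.92, SE 0.17, adjusted p = 0.00333), and the inhibitor NFKBIA was at 0.45. Of 42 interferon response and antigen presentation genes, 18 were lower and 6 higher, or 57.1% called, with a median of -0.31. OAS3, a sensor of double-stranded RNA, was at 2.82, 3.196 and 3.61 TPM in shRPL3, against 9.83, 11.6 and 10.1 TPM in shScramble (-1.45, SE 0.11, adjusted p = 7.9e-05), and IFI6 was at -1.13. IRF1, a transcription factor, was higher (0.84), a call lost with all 30 libraries fitted together.

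Secreted and structural genes went both ways. Of 33 collagen and matrix genes, 11 were higher and 13 lower, with a median log2 fold change of 0.05. That is 72.7% called, where 43.4% of all tested genes were (21.2% higher and 22.3% lower). COL1A1, the alpha 1 chain of type I collagen, was at 1231, 1204 and 1414 TPM in shRPL3, against 764, 614 and 651 TPM in shScramble (0.93, SE 0.10, adjusted p = 0.000397). COL11A1 was at 4.55, 6.87 and 6.36 TPM in shRPL3, against 14.5, 15.1 and 12.5 TPM in shScramble (-1.13, SE 0.15, adjusted p = 0.000667). Of 21 metalloproteinases, plasminogen activators and their inhibitors, 3 were higher and 10 lower, or 61.9% called. TIMP2 was among the lower ones (-0.71), and 6 were lower in 4 of the fits without 1 library. Of 22 genes of the TGF-beta family and its regulators, 7 were higher and 7 lower, or 63.6% called. The activin trap FST was at 28.3, 31.1 and 28.97 TPM in shRPL3, against 69.2, 65.8 and 59.96 TPM in shScramble (-1.11, SE 0.07, adjusted p = 3.81e-05). LTBP1, which tethers latent TGF-beta, was higher by 1.05. Of 17 contractile and cardiac stress genes, 7 were higher and 8 lower, or 88.2% called. ANKRD1, a stretch-responsive protein of the muscle sarcomere, was at 1.74, 1.72 and 2.14 TPM in shRPL3, against 8.10, 9.48 and 8.28 TPM in shScramble (-1.75, SE 0.12, adjusted p = 4.52e-05), and CCN2 was at -0.89.

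Glycolysis genes leaned lower, where 22.3% of all tested genes were lower and 21.2% higher. Of 37 glycolysis and hypoxia genes, 22 were lower and 4 higher, with a median log2 fold change of -0.24, and with all 30 libraries fitted together 14 were lower. PFKL, liver-type phosphofructokinase, was at 41.4, 39.8 and 48.3 TPM in shRPL3, against 83.3, 74.9 and 79.3 TPM in shScramble (-0.86, SE 0.08, adjusted p = 0.000164), and HK2, hexokinase 2, was at -0.53. PFKFB4, which sets the level of an activator of phosphofructokinase, was higher (0.77). Of 18 genes in the list of arrestin relatives and the MondoA and MYC network, 3 were higher and 8 lower. That is 61.1% called, where 43.4% of all tested genes were. TXNIP, KLF10, a TGF-beta-inducible repressor (1.04), and MYC (0.48) were the higher ones. ARRDC3, an arrestin relative of TXNIP, was at 7.92, 9.67 and 8.79 TPM in shRPL3, against 10.4, 12.3 and 12.2 TPM in shScramble (-0.37, SE 0.10, adjusted p = 0.0231; 0.0528 without shRPL3 replicate 3), and it was named after its values were seen. ARRDC1 was lower by more (-0.999, adjusted p = 0.00057), as was MXD3, a MAX partner (-1.11, adjusted p = 6.68e-05). MLXIP, the MondoA gene itself, did not pass (0.01).

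The levels of the leading genes in the other lines are given as a description, with no test. Each of those lines carries the RPL3 hairpin and an RPL3L construct, and RPL3 in their 24 libraries ranged from 439 to 1686 TPM, next to 500 to 570 TPM in shRPL3 and 1534 to 1611 TPM in shScramble. The R161W line had the highest RPL3, at 1059 to 1686 TPM, which overlaps shScramble. TXNIP was at 113 to 127 TPM in shRPL3, 42.5 to 198 TPM in the 24 libraries and 0.845 to 1.28 TPM in shScramble. It was thus above its shScramble level in each of these 24 libraries, those of the R161W line (42.5 to 48.0 TPM) included. FABP3 was at 1.04 to 1.75 TPM in shRPL3, 1.45 to 14.3 TPM in the 24 libraries and 35.3 to 38.2 TPM in shScramble. HMGCS1 was at 85.4 to 93.1 TPM in shRPL3, 28.5 to 149 TPM in the 24 libraries and 452 to 472 TPM in shScramble. HSPA1A did not follow this order: it was at 66.0 to 75.5 TPM in shRPL3, 278.7 to 343.2 TPM in cells with wild-type RPL3L, 54.6 to 93.6 TPM in the D308N, D308V and R343W lines and 176 to 220 TPM in shScramble.

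**Figure D5:**
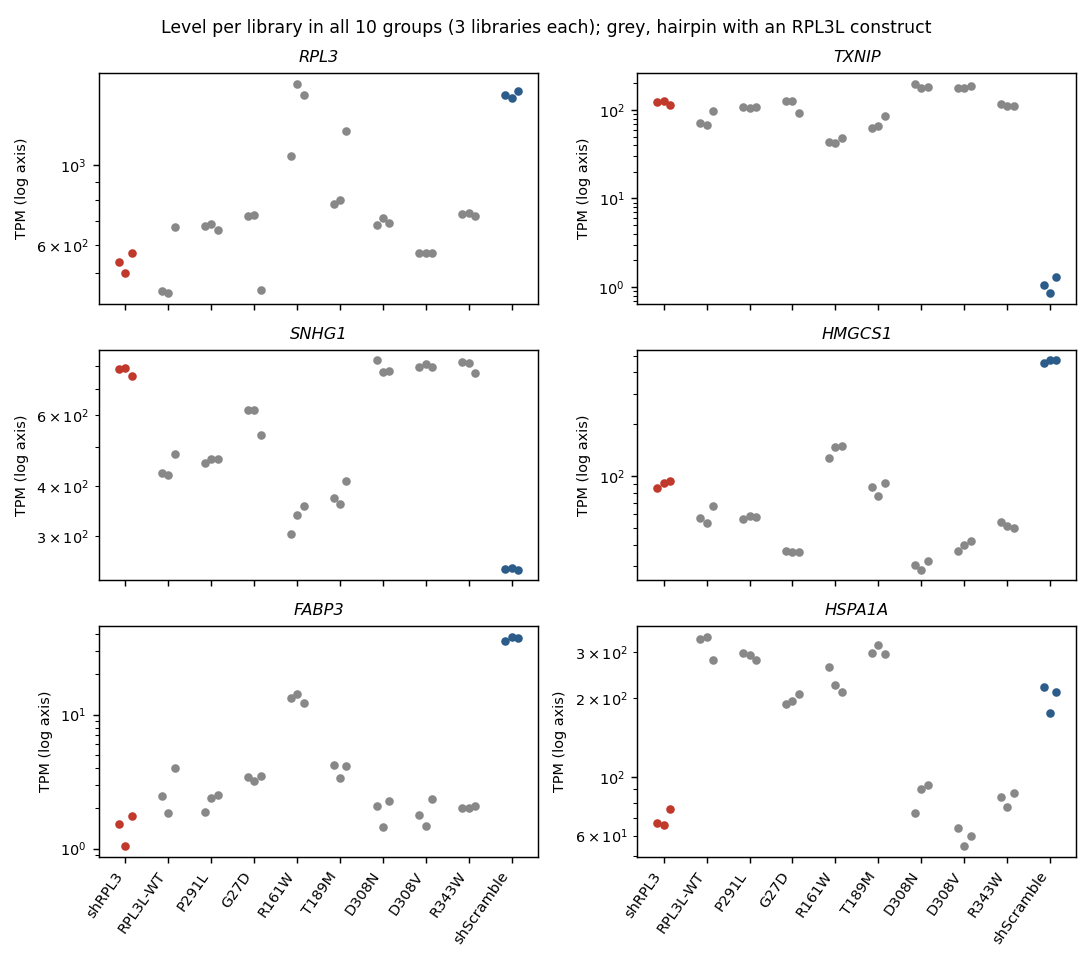
TPM (log axis) of RPL3, TXNIP, SNHG1, HMGCS1, FABP3 and HSPA1A in each of 3 libraries of the 10 whole-cell groups, with shRPL3 in red at the left, shScramble in blue at the right and the lines with an RPL3L construct in grey. TXNIP lies at 42.5 TPM or above in each library with the RPL3 hairpin and at or below 1.28 TPM in shScramble.

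Transcript length and base composition moved with the calls. Of the 11763 protein-coding genes tested, 11397 (96.9%) matched a GENCODE 29 transcript. The genes higher in shRPL3 had a median transcript length of 1586 bases and 48.2% GC, those lower 1799 bases and 51.3% GC, and those not called 1898 bases and 49.6% GC. In the shortest quartile of genes 26.1% were higher and 25.5% lower, and in the longest quartile 18.1% were higher and 25.2% lower. Some listed genes were then left out: cytosolic and mitochondrial ribosomal protein genes, assembly factor genes and nuclear-encoded oxidative phosphorylation genes. Without them the shortest quartile had 23.1% higher and 27.2% lower, and the longest 17.8% higher and 25.4% lower. In the quartile of highest GC 17.1% were higher and 29.1% lower. The part of length and GC in the gene list results was not tested.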

How the data were processed

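For whole-cell polyA RNA the authors deposited gene-level TPM, which sum to 1000000 in each library. Tools listed in the submitters' processing notes are kallisto, Bowtie and bedtools, with no version, and bcl2fastq 2.19. The index, annotation and build of the table were not given in the sources used here. Of 60612 entries, 6 were plasmid sequences and 60606 genes. Columns without a labelled sample numbered 0. The nuclear rRNA table was not used here.

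Values were taken to log2(TPM + 1), a scale that understates the change of low genes. limma 3.58.1 in R 4.3.3 (lmFit, eBayes with trend and robust) was fitted to the 6 libraries without covariates and with 4 residual degrees of freedom, two-sided, with p-values adjusted by Benjamini-Hochberg over the 14422 genes and a threshold of 0.05. The fit was also run on simulated data with 14422 genes, of which 67 were changed by 0.5 (log2), 67 by 1 and 66 by 2. It recovered 40.3%, 79.1% and 89.4% of these, with 4 false calls. In the data 43.4% of genes were called, and the adjusted threshold depends on that share. The simulated figures therefore do not carry over to this comparison. Depth is unknown from TPM, and the number of libraries limits the precision.

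The members and gene lists were chosen with earlier results of these data known, so lists are described by counts and medians. Named genes had an adjusted p under 0.05 with and without shRPL3 replicate 3, at least 5 TPM on average in whichever group was higher, and groups that did not overlap. The first 15 each way by fold change, the first 5 each way by TPM difference and up to 4 members each way per list were taken, with RPL3, RPL3L and up to 10 genes in which shRPL3 replicate 3 stood farthest from its group. Other genes in the text, chiefly list members that did not pass or known regulators, were chosen after their values were seen. SnoRNAs, tRNAs and clone-named genes were not named, and a few qualifying genes are not reported here. Alternatives covered the pseudocount, the filter, median-ratio scaling, all 30 whole-cell libraries, library kind, the eBayes settings, a replicate block and leaving out each library. Motifs were searched and figures drawn in Python 3.11.15 (pandas 2.3.3, numpy 2.4.6, matplotlib 3.10.9).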

Additional observations from a re-analysis of the deposited data

Results flagged for a closer look

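A pair of sequences outside the gene tests was present in 1 library of the shRPL3 group and not in its controls. EBFP2 was at 434 TPM and rtTA3 at 428 TPM in shRPL3 replicate 3, while both were at 0 in the 3 shScramble libraries and at 0.217 TPM or less in shRPL3 replicates 1 and 2. In that library the ratio of EBFP2 to rtTA3 was 1.01 and that of RPL3L to rtTA3 was 0.283. The 24 libraries of cells with an RPL3L construct held ratios of 0.971 to 1.57 and 0.228 to 0.313. Split by library kind, EBFP2 to rtTA3 was 0.971 to 1.05 in 18 of them and 1.43 to 1.57 in 6. By its pseudogene levels shRPL3 replicate 3 was of the same kind as the 18.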

How the results depend on the processing

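The direction of RPL3 and its call held under each of the 15 alternatives. The number of genes past the threshold was 6266 and ranged from 5028 to 7121 over them. No gene named by the rule was reversed, but the rule required groups that did not overlap. Leaving out a library or changing the pseudocount could therefore not reverse them. The call without shRPL3 replicate 3 was also a condition for naming, so it could not be lost. Of the 3625 values computed for 242 such genes under the alternatives, 88 values, in 36 genes, no longer passed. Fitting all 30 whole-cell libraries together lost 29 of them, and the same fit with a term for library kind lost 2. RPL3L stayed short of the threshold throughout.

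Counts of at least 2-fold changes depend on the scale and filter: with a pseudocount of 0.1 there were 759 (302 higher and 457 lower), and with a minimum mean of 5 TPM there were 260 (92 higher and 168 lower), since a lower pseudocount shrinks low genes less and the filter leaves fewer genes. With all 30 whole-cell libraries in 1 fit, the members called were 26 higher for large-subunit ribosomal protein genes, 15 higher for small-subunit genes, 6 higher for the proteasome, 8 lower for G2 and mitosis, 14 lower for glycolysis and hypoxia, 10 higher for nuclear oxidative phosphorylation and 7 lower for mitochondrially encoded genes. With a term for library kind in that fit, 44 large-subunit, 30 small-subunit and 11 proteasome genes were higher. For G2 and mitosis 17 were then lower. The cause was not tested. Without the filter on low values, 5 p53 targets were lower and 15 oxidative phosphorylation genes higher, and without the trend and robust settings 13 oxidative phosphorylation genes were higher. Leaving out 1 library at a time gave 5 to 8 p53 targets lower, 6 to 9 metalloproteinases and inhibitors lower, and 14 to 21 oxidative phosphorylation genes higher.

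Deviations of same-numbered libraries correlated at -0.047, 0.014 and -0.034, and those of differently numbered ones at -0.054 to 0.089. These values cannot tell whether same-numbered libraries were grown or prepared together. With the replicate block 5697 genes passed (2770 higher and 2927 lower). TPM hold no depth, so no limit of detection can be given for genes near 0.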
